A study of Mus musculus with 88 samples.

Results

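The strain by susceptibility interaction in the bed nucleus of the stria terminalis (BNST) compared how susceptible and control mice differed in 2 inbred strains, C57BL/6Crl (B6) and DBA/2Crl (D2). It was the change in D2 (susceptible minus control) minus the same change in B6, on the log2 scale. A negative value therefore means that susceptible D2 mice were lower, relative to their controls, than susceptible B6 mice were relative to theirs. The samples were chosen by the tissue, strain and phenotype labels, and 20 of the 88 libraries of the series took part, 5 from each of control B6, susceptible B6, control D2 and susceptible D2 mice. Another 8 BNST libraries from resilient mice (5 B6 and 3 D2) entered the same fit and are given beside the results. All mice were male and 8 weeks old at dissection. The BNST was taken 6 to 8 days after chronic social defeat stress (CSDS), in which a mouse is repeatedly attacked by an aggressive resident, and controls were never defeated. A defeated mouse was called susceptible when its social interaction ratio lay below the usual range of controls of its own strain, so the label rests on a single behavior and is set against a different baseline in each strain. No mouse gave more than 1 BNST library. The labels name no cages or litters, and p values measure the spread between these mice.

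The BNST is a limbic forebrain nucleus made up mainly of GABA neurons, which links the amygdala to hypothalamic and midbrain centers of the stress response and carries many neuropeptides. In neurons, the ATP spent on firing and transport comes largely from the respiratory chain of mitochondria. Most subunits of that chain are encoded in the nucleus, and the rest, with the ribosomal RNAs of the mitochondrion, in its own small genome. Astrocytes clear glutamate and potassium around synapses. Kinesins and dynein carry cargo along microtubules, and neurofilaments fill the axon.

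Sequencing gave 11825757 to 25793910 counted reads per library in the 4 groups. The tissue carried markers of GABA neurons and of the BNST. Gad1, which makes GABA, ranged over these libraries from 362 to 663 CPM (reads of a gene scaled to library size), Isl1, a transcription factor of limbic GABA neurons, from 9.81 to 19.0 CPM, and Lhx6 from 21.1 to 67.3 CPM. Crh, the stress peptide corticotropin-releasing hormone, was low (0.162 to 8.78 CPM). Markers of neighboring tissue were present too and varied more: the striatal gene Ppp1r1b ranged from 70.5 to 2630 CPM, the cortical gene Slc17a7 from 0.0836 to 134 CPM, and the thalamic gene Synpo2 from 6.02 to 215 CPM. In whole tissue, fewer cells of a type and less RNA per cell cannot be told apart.

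The libraries themselves also differed along the contrast. The TMM normalization factor, which scales a library by the bulk of its genes, was 0.656 to 0.970 in susceptible B6 mice and 1.118 to 1.27 in susceptible D2 mice, against 0.819 to 1.22 in control B6 and 0.807 to 1.143 in control D2 mice. The mitochondrial ribosomal RNAs took 13.7 to 25.3% of the reads in susceptible B6 and 4.79 to 7.94% in susceptible D2 mice, against 5.81 to 15.7% and 8.90 to 26.7% in their controls. Short nuclear genes, with under 1000 exonic bases, took 0.846 to 1.09% of nuclear reads in susceptible D2 mice against 1.09 to 1.53% in their controls. In susceptible B6 mice they took 3.65% in 1 library (replicate 3) and at most 1.301% in the other 4, within the 0.976 to 1.61% of control B6 mice. Of the 5 susceptible D2 libraries, 4 list a single sequencing set, while all other BNST libraries list 2. The part of these measures in the results was not tested.

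**Figure D1:**
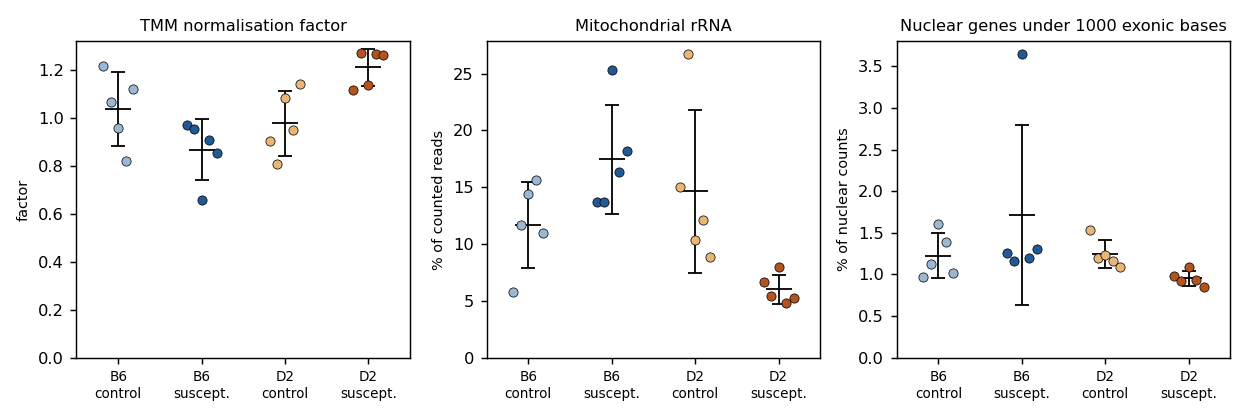
Library properties of the 20 mice by group. Each point is a mouse, and the bar is the group mean ± SD (n = 5). The panels show the TMM factor, the percent of reads on the mitochondrial ribosomal RNAs and the percent of nuclear reads on genes with under 1000 exonic bases. The TMM factors of susceptible D2 mice (1.118 to 1.27) lie above those of all susceptible B6 mice (0.656 to 0.970).

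No gene passed on its own in edgeR. Of 17515 genes tested with edgeR's quasi-likelihood test, 0 (0%) had a Benjamini-Hochberg adjusted p under 0.05, and the lowest adjusted p was 0.0708. At an unadjusted p under 0.05 there were 2004 genes (11.4%), of which 1287 were lower in D2 relative to B6 (7.35% of all genes) and 717 higher (4.09%). With DESeq2 in place of edgeR, 223 genes passed the adjusted threshold and 2235 the unadjusted one. Within a strain, edgeR found 0 genes past the adjusted threshold in B6 or in D2, and 1115 (6.37%) and 1056 (6.03%) at an unadjusted p under 0.05. The call depended on the fit. In edgeR with a term for the first part of the mouse ID, 80 genes passed the adjusted threshold (lowest adjusted p = 0.00779). Among them were 20 of the 61 named by the rules used here. This prefix was EC3 or EC4 in B6 mice and ED3, ED4 or ED6 in control and susceptible D2 mice. It was uneven along the contrast, with ED6 in most control and ED4 in most susceptible D2 mice. Without B6 control replicate 4, and without the prefix term, 109 genes passed. The adjusted p values given for single genes are those of the fit with all mice and without the prefix term, in which all missed the threshold.

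Opposite directions in the strains prevailed among the 2004 genes. In 1280 of them (63.9%) the estimate was positive in B6 and negative in D2, in 708 (35.3%) it was negative in B6 and positive in D2, and in 16 it had the same sign in both. Over all 17515 genes the corresponding shares were 36.1%, 28.8% and 35.1%. Opposite signs add up in the interaction, so crossing genes are more frequent at a low p by construction. In 190 genes of the first kind and 45 of the second, the change had an unadjusted p under 0.05 in each strain separately. The split depended on scaling. With library sizes alone in place of TMM factors, the median interaction of all genes was 0.53 in place of -0.042, and of the 5331 genes at an unadjusted p under 0.05, 3.81% were positive in B6 and negative in D2 and 96.0% the reverse. Medians of gene lists called relative in what follows have the median of all genes subtracted, which takes out this shift.

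**Figure D2:**
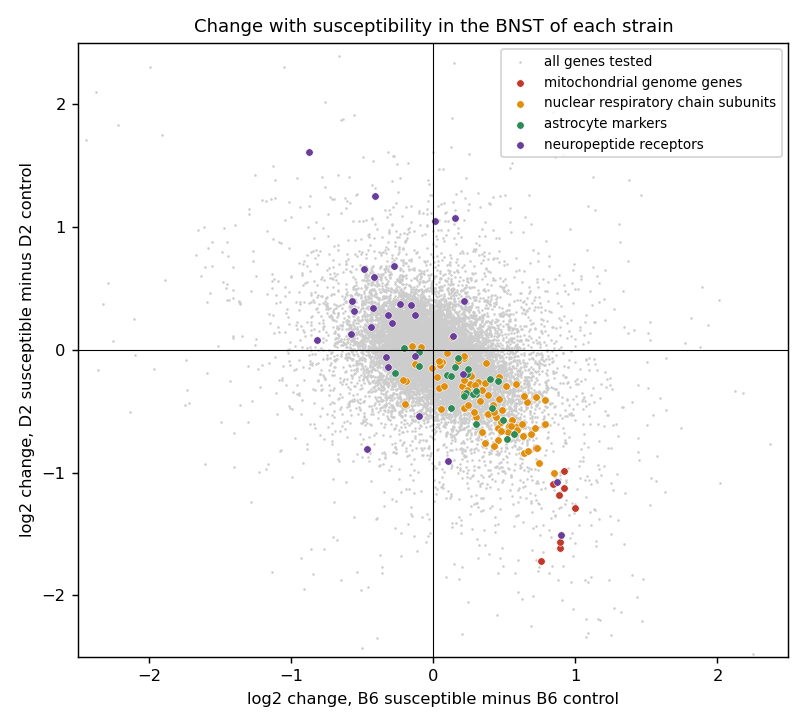
Log2 change of each gene tested in susceptible against control B6 mice (x axis) and in susceptible against control D2 mice (y axis). Gray points are all genes tested, of which 22 lie outside the axes, and colored points are gene lists. Genes of the mitochondrial genome and of the nuclear respiratory chain gather at the lower right, with positive values in B6 and negative ones in D2.

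Transcripts of the mitochondrial genome showed the widest opposition of the lists described. All 9 that were tested had a negative interaction at an unadjusted p under 0.05, with a median change of 0.89 in B6 and -1.19 in D2 and a median interaction of -2.07. mt-Nd6 is the 1 coding gene of the opposite strand, and whether counting used strand is not given in the sources used here, so its reads cannot be told apart from transcripts across from it. Within library preparation set 1 (2 or 3 mice per group) the median change was 1.54 in B6 and -1.07 in D2. Within set 2 it was 0.21 and -1.23, with 4 of the 9 at an unadjusted p under 0.05. mt-Co1 (GRCm38, as all positions given here; mitochondrial positions 5328 to 6872), the catalytic subunit of cytochrome c oxidase, had 3294, 4874, 5454, 6513 and 8224 CPM in control B6 and 8576, 8900, 9660, 9700 and 9944 CPM in susceptible B6 mice. In D2 it had 3431, 4539, 7019, 7397 and 7782 CPM in controls and 2530, 2788, 2923, 4277 and 4829 CPM in susceptible mice. All susceptible B6 mice lay above their controls, whereas the D2 groups overlapped. Its interaction was -1.52 ± 0.37 (SE; edgeR adjusted p = 0.0856). mt-Rnr2, the large ribosomal RNA of the mitochondrion, had an interaction of -2.48 ± 0.55 (adjusted p = 0.0708), and all susceptible D2 mice (18320 to 30600 CPM) lay below the D2 controls (39560 to 177900 CPM). The libraries were depleted of rRNA with custom primers, and whether these also removed mitochondrial rRNA is not given in the sources used here. The part of depletion in the values of mt-Rnr2 and of the smaller mt-Rnr1 was not tested. With DESeq2, 7 of the 9 passed the adjusted threshold. Without the 4 susceptible D2 libraries of a single sequencing set, which leaves 1 mouse in that group, the relative median was -1.42 in place of -2.03. Another 6 genes of this genome (mt-Nd3, mt-Nd4l, mt-Co2, mt-Co3, mt-Atp6 and mt-Atp8) had 0 to 4 reads in every library and were not tested. They lie side by side in a stretch that has a near-identical copy in the nuclear genome, and how reads that match both were counted is not given in the sources used here.

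Nuclear genes of the respiratory chain pointed the same way. Of 76 subunits, all of which were tested, 44 (57.9%) had a negative interaction at an unadjusted p under 0.05, against 7.35% of all genes, and 0 had a positive one. With DESeq2, 15 of them passed the adjusted threshold. In 68 subunits the estimate was positive in B6 and negative in D2 (89.5%, against 36.1% of all genes). The median change was 0.36 in B6 and -0.41 in D2, and the median interaction -0.77. The B6 median was 0.19 without B6 susceptible replicate 3 and 0.19 within library set 2. The D2 median was -0.24 with a term for the prefix of the mouse ID. With library sizes alone the B6, D2 and interaction medians were 0.091, -0.11 and -0.24, and the median interaction of the mitochondrial genome genes was -1.59. For scale, the oligodendrocyte and ribosomal protein lists had median interactions of -0.94 and -0.83.

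Many nuclear respiratory genes carry a promoter element for nuclear respiratory factor 1 (NRF1) or for ETS family factors such as GABP. Some promoters that hold such a core are shown, taken in order of interaction p. Members of lower p without a core in the printed bases, or without a promoter entry, were passed over, so the lines do not represent the list. RefSeq promoters (GRCm38.p6, 250 bases before to 50 after the start) matched 63 of the 76 genes. The NRF1 core GCGCATGC, or GCATGCGC on the other strand, was in 11 of them (17.5%) and in 3.05% of 27025 genes with a promoter. The ETS core CCGGAAGT, or ACTTCCGG on the other strand, was in 5 (7.94%) against 4.31%, and 1 subunit gene had both. The lines below give the 120 bases before the start, read along the gene, with the core in capitals. Within these 120 bases alone, 11.1% of the matched subunit genes held the NRF1 core (all genes, 1.88%) and 4.76% the ETS core (2.53%). Further promoters with a core there are not shown, such as that of Uqcr11 with the ETS core (interaction -0.68, edgeR unadjusted p = 0.12). Cycs encodes cytochrome c (chr6:50566570-50566689, minus strand, interaction -1.19), and the bases after its RefSeq start were not found in an annotated transcript. Ndufa6 encodes a complex I subunit (chr15:82354292-82354411, minus strand, interaction -0.90). Atp5k (chr5:108434400-108434519, minus strand, interaction -1.48) and Atp5h (chr11:115419920-115420039, minus strand, interaction -1.20) encode parts of ATP synthase. Uqcrh encodes a complex III subunit (chr4:116075071-116075190, minus strand, interaction -1.15).
Cycs, NRF1 core: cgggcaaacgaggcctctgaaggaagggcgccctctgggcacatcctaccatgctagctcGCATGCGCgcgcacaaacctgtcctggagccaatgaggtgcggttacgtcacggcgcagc
Ndufa6, NRF1 core: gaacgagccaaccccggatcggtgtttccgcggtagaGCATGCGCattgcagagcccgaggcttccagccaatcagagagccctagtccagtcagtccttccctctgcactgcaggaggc
Atp5k, NRF1 core on both strands, overlapping: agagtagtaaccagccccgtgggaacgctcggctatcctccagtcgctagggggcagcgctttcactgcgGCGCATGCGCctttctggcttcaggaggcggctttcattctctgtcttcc
Atp5h, ETS core: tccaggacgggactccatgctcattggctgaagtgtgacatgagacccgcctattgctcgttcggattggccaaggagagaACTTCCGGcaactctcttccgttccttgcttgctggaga
Uqcrh, ETS core: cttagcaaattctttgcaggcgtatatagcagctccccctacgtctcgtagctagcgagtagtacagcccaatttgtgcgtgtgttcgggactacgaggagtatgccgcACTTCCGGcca
Most promoters of the list held neither core as spelled here, and no binding was measured.

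Uqcrb (chromosome 13, 66900617 to 66905378), a complex III subunit, had 30.2, 31.4, 31.5, 35.2 and 41.5 CPM in control B6 and 45.4, 48.0, 52.1, 56.0 and 62.3 CPM in susceptible B6 mice. In D2 it had 29.3, 36.9, 42.8, 51.0 and 71.2 CPM in controls and 21.8, 25.0, 27.2, 33.3 and 34.9 CPM in susceptible mice. The B6 groups did not overlap and the D2 groups did, and the interaction was -1.34 ± 0.27 (edgeR adjusted p = 0.0708). Ndufv2, a complex I subunit, separated in both strains. It averaged 71.7 ± 8.08 CPM in susceptible and 57.2 ± 4.58 CPM in control B6 mice, and 52.6 ± 3.63 against 70.2 ± 13 CPM in D2 (mean ± SD, n = 5). Ndufc1 of complex I had -1.01 ± 0.21 and Atp5h of ATP synthase -1.20 ± 0.27. Some subunits lacked the pattern: Ndufs3, Ndufv1 and Cyc1, picked after their values were seen, had interactions of 0.19, 0.11 and 0.0085. The relative median of the list was -0.73, between -0.90 and -0.55 when a mouse was left out, -0.68 and -0.75 within library preparation sets 1 and 2 (2 or 3 mice per group), and -0.53 without the libraries of a single sequencing set.

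Short transcripts as a class leaned the same way. Among the 491 genes with under 500 exonic bases the median interaction was -0.41, among the 715 with 500 to 1000 bases -0.30, and among the 5922 with 4000 to 8000 bases 0.011. The respiratory chain list had a median exonic length of 1737 bases, and the 2216 genes of 1000 to 2000 bases had a median interaction of -0.18. Many subunits have processed pseudogenes, and how the counting divided reads between such copies is not known, so the level of a single subunit is uncertain.

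**Figure D3:**
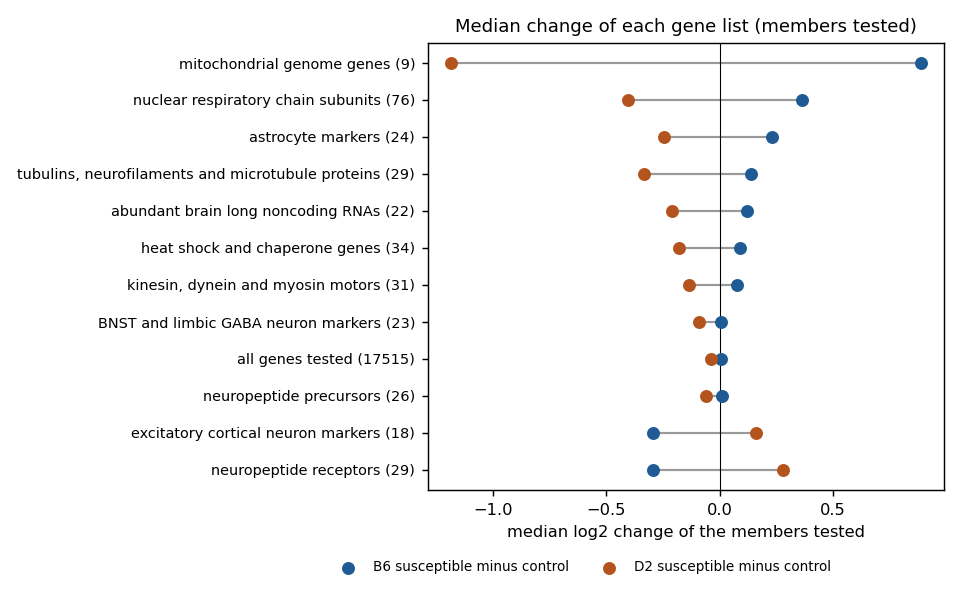
Median log2 change of the members of each gene list, susceptible minus control, in B6 and in D2, with the median over all genes tested for comparison. Mitochondrial genome genes have the widest gap (0.89 in B6 and -1.19 in D2), and neuropeptide receptors have the opposite order (-0.29 and 0.28).

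The single genes with the lowest p outside the oligodendrocyte and ribosomal lists included more of mitochondrial function. Mpc2 (chromosome 1, 165460637 to 165481214), part of the carrier that takes pyruvate into mitochondria, had 36.5, 39.1, 42.2, 42.5 and 48.2 CPM in control B6 and 46.4, 49.4, 49.9, 52.3 and 62.4 CPM in susceptible B6 mice. The D2 values were 48.9, 49.2, 54.3, 56.0 and 62.4 CPM in controls and 32.0, 35.6, 36.2, 36.6 and 41.3 CPM in susceptible mice. The D2 groups did not overlap and the B6 groups did, and the interaction was -0.90 ± 0.16 (edgeR adjusted p = 0.0708). Chchd2 (chromosome 5, 129881156 to 129887470), a protein of the mitochondrial intermembrane space, had 27.1, 28.6, 29.9, 36.8 and 40.0 CPM in control B6 and 41.4, 44.0, 44.9, 62.6 and 69.3 CPM in susceptible B6 mice. Its D2 values were 27.6, 33.5, 35.9, 42.5 and 60.1 CPM in controls and 20.1, 22.1, 23.1, 26.3 and 30.3 CPM in susceptible mice. Here the B6 groups were apart, and the interaction was -1.40 ± 0.28 (adjusted p = 0.0708). Ywhaq (chromosome 12, 21390071 to 21417637), a 14-3-3 adaptor protein, had 70.2, 78.3, 84.2, 90.5 and 91.7 CPM in control B6 and 90.1, 118, 121, 139 and 152 CPM in susceptible B6 mice. D2 mice had 72.3, 87.1, 88.8, 95.4 and 112 CPM in controls and 55.7, 64.1, 66.5, 74.3 and 75.4 CPM in susceptible mice. Groups overlapped slightly in both strains, and the interaction was -1.02 ± 0.20 (adjusted p = 0.0708).

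Beside Uqcrb and Ndufc1, the other genes of this direction were Rsrc1, Dbi, Itm2b, Tceal8 and Tma7, with interactions from -1.46 to -0.91 and the same adjusted p of 0.0708. Dbi, the acyl-CoA binding protein that also acts on GABA-A receptors, separated in both strains. It averaged 78.2 ± 4.84 CPM in susceptible and 52.6 ± 10.4 CPM in control B6 mice, and 36.7 ± 5.3 against 53.2 ± 5.25 CPM in D2 (mean ± SD, n = 5). Rsrc1 takes part in splicing.

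In the opposite direction, negative in B6 and positive in D2, the lowest p was that of Sstr2 (chromosome 11, 113619342 to 113626028), a receptor for the inhibitory peptide somatostatin. It had 4.35, 5.04, 5.41, 6.77 and 8.03 CPM in control B6 and 2.22, 2.72, 3.61, 3.70 and 3.91 CPM in susceptible B6 mice. In D2 it had 1.40, 1.94, 2.169, 2.68 and 4.43 CPM in controls and 3.51, 6.385, 6.59, 8.02 and 14.2 CPM in susceptible mice. The B6 groups did not overlap and the D2 groups did, and the interaction was 2.49 ± 0.53 (edgeR adjusted p = 0.0708). Casp2 (chromosome 6, 42264985 to 42282508), a caspase of stress-induced cell death, had 9.39, 12.4, 13.2, 14.6 and 14.8 CPM in control B6 and 6.85, 7.78, 7.79, 7.81 and 8.95 CPM in susceptible B6 mice. The D2 levels were 9.71, 10.71, 12.0, 12.5 and 14.8 CPM in controls and 11.0, 11.9, 16.2, 16.4 and 16.5 CPM in susceptible mice. Groups were apart in B6 alone, and the interaction was 0.99 ± 0.22 (adjusted p = 0.0708). Ift122 (chromosome 6, 115853470 to 115926699), which carries proteins within the primary cilium, had 23.8, 24.9, 27.7, 29.6 and 31.6 CPM in control B6 and 17.8, 23.3, 23.6, 24.4 and 27.3 CPM in susceptible B6 mice. D2 mice had 15.5, 16.8, 19.3, 20.1 and 20.5 CPM in controls and 22.9, 25.3, 25.7, 26.2 and 26.8 CPM in susceptible mice. Here the D2 groups were apart and the B6 groups were not, and the interaction was 0.70 ± 0.16 (adjusted p = 0.0850).

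The remaining genes of that direction were Atg16l2 (a relative of a core autophagy protein), Ackr1 (a chemokine scavenger of vessels), Nbeal2 (granule biogenesis), Il34 (a ligand of the microglial CSF1 receptor), Zfp142, Naa40 (an acetyltransferase of histone tails) and Rgs12 (a brake on G protein signaling). Their interactions ranged from 0.59 to 1.29, with adjusted p of 0.0856 to 0.117 in edgeR. In Zfp142 and Naa40 the susceptible mice lay wholly below controls in B6 and wholly above them in D2. These genes were chosen by p and share no list.

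**Figure D4:**
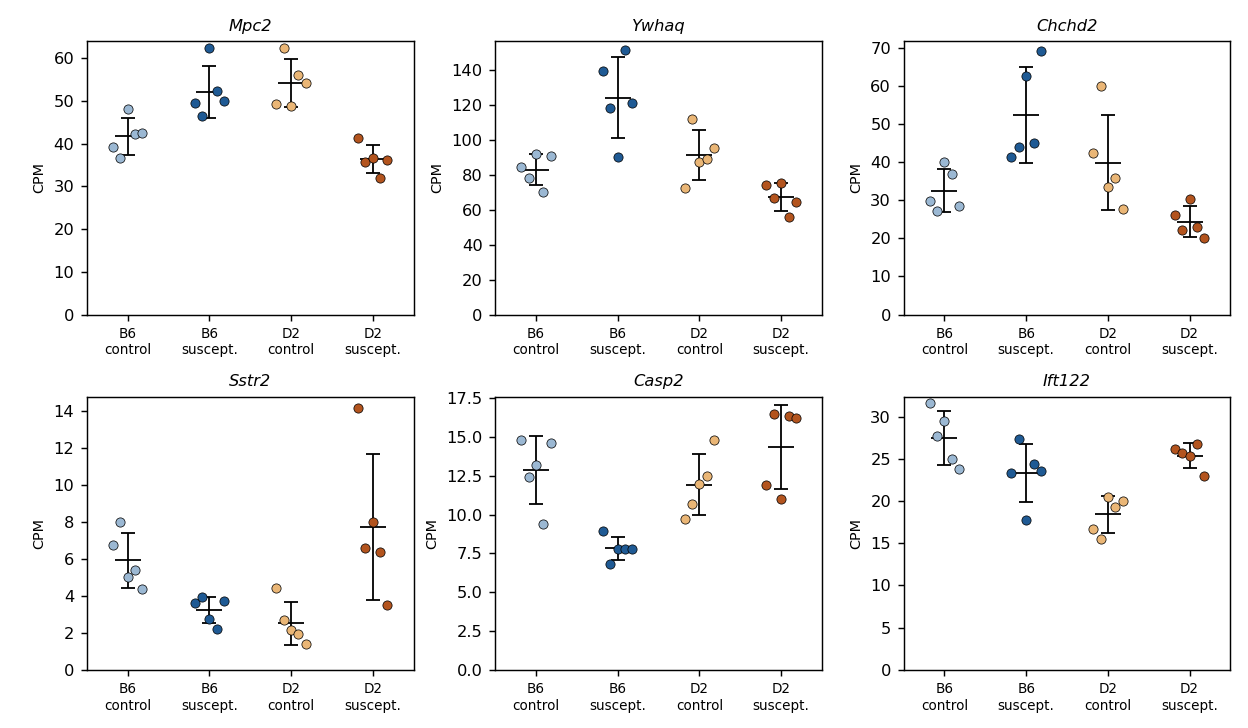
CPM of the genes with the lowest interaction p in each direction, with Mpc2, Ywhaq and Chchd2 for positive changes in B6 and negative ones in D2, and Sstr2, Casp2 and Ift122 for the reverse. Each point is a mouse, and the bar is the group mean ± SD (n = 5). Susceptible D2 mice lie below all their controls in Mpc2 (32.0 to 41.3 against 48.9 to 62.4 CPM) and above all their controls in Ift122 (22.9 to 26.8 against 15.5 to 20.5 CPM).

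Astrocyte genes pointed the same way as the energy genes. Of the 24 tested, 12 (50%) had a negative interaction at an unadjusted p under 0.05 (all genes, 7.35%) and 0 a positive one, and the median change was 0.23 in B6 and -0.25 in D2. The relative median was -0.55, or -0.36 without B6 susceptible replicate 4. With a term for the prefix of the mouse ID the D2 median was -0.11 and the relative median -0.41. With library sizes alone it was -0.57, but the medians before subtraction became -0.014 in B6 and 0.062 in D2. Glul, the glutamine synthetase that joins glutamate and ammonia, averaged 628 ± 193 CPM in susceptible and 423 ± 122 CPM in control B6 mice, and 247 ± 34.1 against 397 ± 122 CPM in D2 (mean ± SD, n = 5). Its groups overlapped in both strains, and the interaction was -1.25 ± 0.31 (edgeR adjusted p = 0.0961). Ndrg2 (-1.06 ± 0.27), S100b (-1.25 ± 0.34) and the glutamate transporter Slc1a3 (-0.63 ± 0.18) had adjusted p of 0.0961 to 0.139. The list score, the mean log2 CPM of the members in a mouse, overlapped between susceptible and control mice in both strains, and between the susceptible mice of the 2 strains. Within library set 1 the relative median was -0.20, and within set 2 it was -0.66. The medians before subtraction were 0.066 in B6 and -0.021 in D2 within set 1, and 0.19 and -0.44 within set 2.

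Genes of the axonal cytoskeleton and of transport along it followed. Among tubulins, neurofilaments and microtubule proteins, 12 of 29 (41.4%) had a negative interaction at an unadjusted p under 0.05 (all genes, 7.35%) and 0 a positive one, and the median change was 0.14 in B6 and -0.33 in D2. The B6 median was 0.079 without B6 control replicate 1, 0.21 without B6 susceptible replicate 2 and 0.23 without B6 control replicate 4. Within D2, 10 members had an unadjusted p under 0.05 (all genes, 6.03%), and within B6 1 (6.37%). Map1b, which steadies growing microtubules, separated in D2 (1168 to 1863 CPM in susceptible against 1915 to 2439 CPM in control mice), with an interaction of -0.87 ± 0.24 (edgeR adjusted p = 0.121). The intermediate filament genes Nefm (-1.57 ± 0.47) and Ina (-0.66 ± 0.22) had adjusted p of 0.167 and 0.199, and Map4 -0.71 ± 0.24 (adjusted p = 0.203). Of 31 kinesins, dyneins and myosins, 8 (25.8%) had a negative interaction at that threshold (all genes, 7.35%) and 0 a positive one. They were led by Dync1li2 (-0.52 ± 0.15), Kif3a (-0.61 ± 0.19), Kif5c (-0.59 ± 0.18) and Kif5a (-1.16 ± 0.36), with adjusted p of 0.139 to 0.177. With library sizes alone the median interactions of these lists were 0.0084 and 0.36, or -0.52 and -0.17 relative to all genes, and Dync1li2 turned positive. Thalamic markers had a median change of -0.12 in B6 and -1.13 in D2. At an unadjusted p under 0.05 there were 3 of 18 members in the interaction (16.7%, against 11.4% of all genes). Within D2 there were 10 (all genes, 6.03%) and within B6 0 (6.37%). The part of thalamic tissue in the cytoskeleton and transport values was not tested.

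Chaperones gave a smaller opposition. Of 34 heat shock and chaperone genes, 9 (26.5%) had a negative interaction at an unadjusted p under 0.05 (all genes, 7.35%) and 0 a positive one, with medians of 0.092 in B6 and -0.18 in D2. With library sizes alone these medians were -0.15 and 0.13, and the relative median was -0.20 in place of -0.23. Without D2 control replicate 2 the relative median was -0.048. Hsp90aa1, the inducible cytosolic HSP90 that folds the glucocorticoid receptor, had 186, 201, 223, 240 and 258 CPM in control B6 and 216, 276, 319.9, 339 and 400.3 CPM in susceptible B6 mice. In D2 it had 235, 270.2, 282, 305 and 436 CPM in controls and 141, 186, 193, 221 and 232 CPM in susceptible mice. All susceptible D2 mice lay below the controls, the B6 groups overlapped, and the interaction was -1.14 ± 0.26 (edgeR adjusted p = 0.0745). Hspe1, the mitochondrial co-chaperonin, had -1.08 ± 0.26, Hspa8, the constitutive HSP70, -0.73 ± 0.24, and Dnajb6 -0.89 ± 0.30, with adjusted p of 0.0856 to 0.2.

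Long noncoding RNAs of brain were mixed. Of the 22 tested, 7 (31.8%) had a negative interaction at an unadjusted p under 0.05 (all genes, 7.35%) and 0 a positive one. In 13 (59.1%, against 36.1% of all genes) the estimate was positive in B6 and negative in D2. Malat1, an RNA of nuclear speckles, had 8379 to 11110 CPM in susceptible and 4047 to 9753 CPM in control B6 mice, and 3673 to 5957 against 5162 to 10320 CPM in D2. Both pairs of groups overlapped, and the interaction was -1.40 ± 0.33 (edgeR adjusted p = 0.0856). Sox2ot, Snhg1 and Pantr1 had -1.05, -0.78 and -0.72, with adjusted p of 0.238 to 0.266. Sox2ot spans Sox2, and noncoding genes that overlap others may hold reads of both. The relative median was -0.46, and it was -0.51 within library set 1 and 0.016 within set 2, and -0.25 without D2 control replicate 2. With library sizes alone the medians before subtraction were -0.10 in B6 and 0.11 in D2.

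Receptors for neuropeptides ran the other way. Of 29 tested, 22 had a positive interaction, and 16 (55.2%, against 28.8% of all genes) were negative in B6 and positive in D2. The median change was -0.29 in B6 and 0.28 in D2, and the median interaction 0.60. The B6 median was -0.16 without B6 control replicate 2, and the D2 median 0.17 without D2 control replicate 4 and 0.43 without D2 control replicate 2. At an unadjusted p under 0.05 there were 4 members with a positive interaction (all genes, 4.09%) and 2 with a negative one (all genes, 7.35%). The positive ones were Sstr2, Adcyap1r1, the receptor for the stress peptide PACAP (0.51 ± 0.21), Vipr1 (1.01 ± 0.45) and Sstr1 (0.97 ± 0.47). The negative ones were Vipr2 (-2.41 ± 0.91) and the vasopressin receptor Avpr1a (-1.95 ± 0.90). Apart from Sstr2 their adjusted p was 0.271 to 0.426 in edgeR, and Sstr1 and Avpr1a are named after their values were seen. Vipr2 reached 23.4 CPM in a control D2 mouse, against a median of 2.83 CPM in that group. In the score of the list, all 5 susceptible B6 mice lay below the mean of their controls and all 5 susceptible D2 mice above theirs. The ranges overlapped, with 2.143 to 2.70 in susceptible against 2.57 to 2.91 in control B6 mice and 2.49 to 3.06 against 2.09 to 2.83 in D2, as mean log2 CPM. The relative median stayed positive in the 36 settings tried, from 0.34 to 0.87. These settings share mice, and the subtraction takes out shifts from scaling. These receptors were low, with a median of 6.89 CPM, and Ntsr2 among them is also an astrocyte marker.

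**Figure D5:**
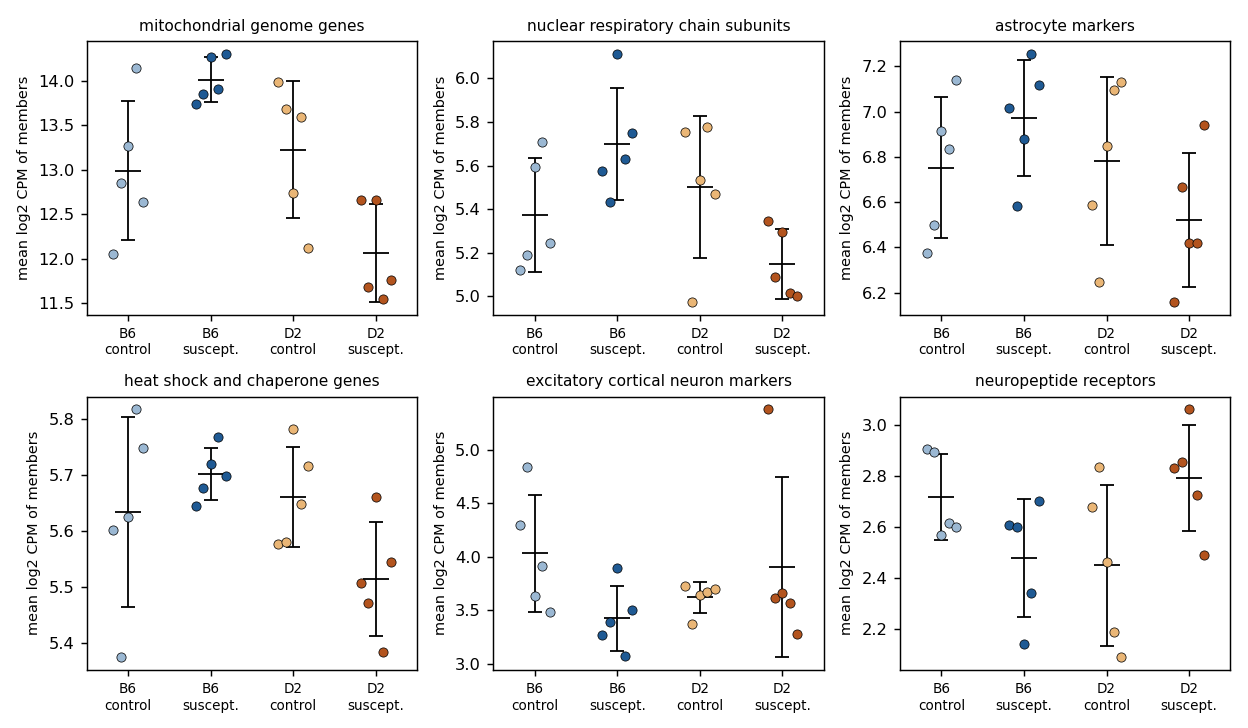
Score of gene lists in each of the 20 mice, as the mean log2 CPM of the members tested. Each point is a mouse, and the bar is the group mean ± SD (n = 5). Mitochondrial genome scores of susceptible D2 mice (11.6 to 12.7) lie below those of all susceptible B6 mice (13.7 to 14.3), and in excitatory cortical markers 1 susceptible D2 mouse stands at 5.38 above the others of its group.

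Peptide precursors did not share a direction. Of 26 tested, 10 were positive in B6 and negative in D2 and 9 the reverse, and the median interaction was 0.042. At an unadjusted p under 0.05, 5 were positive and 1 negative (all genes, 4.09% and 7.35%). Those with the lowest p were Prok2, a peptide under clock control, Oxt (oxytocin), Cartpt and Cort (a somatostatin relative), with interactions of 2.41 to 4.47 and adjusted p of 0.2 to 0.382 in edgeR. Counts behind them were small. Cort had 0 to 5 reads per library in susceptible B6 and 10 to 31 reads in susceptible D2 mice, and 3 to 12 and 1 to 20 in controls. Oxt had 0, 0.322, 0.547, 4.91 and 25.1 CPM in susceptible D2 mice, so that a single mouse stood above the rest. With members of under 5 CPM on average left out, the relative median of the list went from 0.084 to -0.41.

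Markers of BNST and limbic GABA neurons were close to all genes as a list. Of 23 tested, 3 (13%, against 7.35% of all genes) had a negative interaction at an unadjusted p under 0.05, and the median interaction was -0.076. These were the GABA-making enzymes Gad1 (-0.61 ± 0.19, edgeR adjusted p = 0.186) and Gad2 (-0.61 ± 0.27, adjusted p = 0.362) and the transcription factor Six3 (-1.19 ± 0.43, adjusted p = 0.247). Gad2 reached 1186 CPM in a control D2 mouse, against a median of 527 CPM in that group. Prkcd, a kinase of extended amygdala neurons, had -1.93 ± 1.09 (adjusted p = 0.530) and 11.3, 12.7, 30.4, 80.2 and 461 CPM in control D2 mice, the highest far above the rest. Its change was -0.50 in B6 and -2.43 in D2, and the thalamic markers had medians of -0.12 and -1.13. Excitatory cortical markers had 5 of 18 members with a positive interaction and 1 (Rorb, -0.85) with a negative one at an unadjusted p under 0.05 (all genes, 4.09% and 7.35%). Rorb reached 260 CPM in a control D2 mouse, against a median of 100 CPM in that group. The part of thalamic tissue in the Prkcd and Rorb values was not tested. Neurod2 had 4.05 ± 1.62 (adjusted p = 0.302), Neurod6 3.85 ± 1.68 and Nptx1 1.48 ± 0.62. Neurod6, a transcription factor of cortical projection neurons, had 0.319, 0.346, 0.409, 0.919 and 16.8 CPM in susceptible D2 mice. Without the mouse at the top of that range, the relative median of the list was 0.076 in place of 0.40, and without B6 susceptible replicate 3, B6 susceptible replicate 4 or D2 control replicate 1 it was 0.61, 0.61 and 0.63.

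In resilient mice, set against the same controls, mitochondrial genome and respiratory chain genes had the same signs with smaller sizes. In their interaction, 588 genes (3.36%) had an unadjusted p under 0.05. The median interaction was -0.74 for mitochondrial genome genes (0.38 in B6 and -0.36 in D2). For respiratory chain subunits it was -0.33 (0.18 and -0.16), with 6 of 76 subunits at an unadjusted p under 0.05. Astrocyte genes had -0.27, with both strains negative (-0.065 and -0.31), and neuropeptide receptors 0.087. Tubulins and their kin had -0.42, with 6 of 29 members at an unadjusted p under 0.05. Excitatory cortical markers had -1.11, opposite in sign to susceptible mice, with 7 of 18 members. Controls are shared and the resilient D2 group held 3 mice, and the difference from susceptible mice was not tested.

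In the medial prefrontal cortex (mPFC, 26 mice of these 4 groups) and the ventral hippocampus (vHPC, 20 mice), the lists had other values under the same contrast. At an unadjusted p under 0.05 limma counted 1766 genes (9.32%) in the mPFC and 3600 (18.4%) in the vHPC. The median interaction of respiratory chain subunits was 0.026 in the mPFC and 0.22 in the vHPC, with 4 and 25 of 76 members at an unadjusted p under 0.05. Astrocyte genes had 0.043 and 0.17, and mitochondrial genome genes 0.15 and -0.020. Of the latter, 0 of 9 had an unadjusted p under 0.05 in either region. In the vHPC the mitochondrial ribosomal RNAs mt-Rnr1 and mt-Rnr2 had -1.67 and -1.04 (limma adjusted p = 0.279 and 0.330). The coding genes mt-Co1 and mt-Nd6 had 0.069 and 0.081 there. Glul had an interaction of -1.25 in the BNST, 0.071 in the mPFC and 0.37 in the vHPC (limma adjusted p = 0.0241), and Hspa8 had -0.73, 0.15 and 0.86 (vHPC adjusted p = 0.00513). In the vHPC the changes of both genes were negative in both strains. Glul had -0.56 in B6 and -0.19 in D2 there, and Hspa8 -1.50 and -0.64. The difference between regions was not tested, since their libraries were made with other kits and their values had been adjusted for batches before deposit.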

How the data were processed

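RNA from the BNST of 28 mice was sequenced as 1 library each after rRNA depletion with custom primers. Before deposit, the authors cut adapter sequence, dropped PCR duplicate reads and mapped the rest with STAR (build GRCm38). They deposited raw counts of reads over the exons of each gene, made with HTSeq. What removing duplicates did to short, abundant transcripts was not tested. The strand setting is not given in the sources used here. The mPFC and vHPC values were deposited as log2 CPM, adjusted for batches by the authors with ComBat.

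Genes with at least 1 CPM in 6 libraries were kept (17515 of 48795, of which 99.65% matched a symbol of GENCODE). Counts were normalized with TMM and tested with edgeR 4.0.16 (robust quasi-likelihood, a mean per strain and phenotype over all 28 libraries, two-sided, Benjamini-Hochberg over all genes). The mPFC and vHPC were tested with limma 3.58.1. Alternatives used DESeq2 1.42.0, sva 3.50.0, other filters, scalings and batch terms, and each mouse left out.

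Lists with at least 8 members tested were described by their counts and medians, without a test of the list. Those described gene by gene were the 8 with the highest share of members at an unadjusted p under 0.05, oligodendrocyte and ribosomal lists apart, plus neuropeptide and BNST lists, with the 4 members of lowest p in each. The 10 genes of lowest p in each crossing direction, with at least 2 CPM on average and a proper symbol, were named as well. Members and lists were chosen with earlier results of these data known.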

Additional observations from a re-analysis of the deposited data

Results flagged for a closer look

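In 9 of 17 measures all 5 susceptible B6 mice lay on one side of the mean of their controls and all 5 susceptible D2 mice on the other. These differences were not tested. For mean list scores, the D2 change minus the B6 change was -2.19 log2 units for mitochondrial genome genes (1.03 in B6 and -1.16 in D2), -0.681 for nuclear respiratory chain subunits (0.328 and -0.353), -0.341 for long noncoding RNAs (0.171 and -0.17) and 0.58 for neuropeptide receptors (-0.239 and 0.341). For single genes it was -28.2 CPM for Mpc2 (10.4 in B6 and -17.8 in D2), -65 CPM for Ywhaq (41.1 and -23.9) and -35.5 CPM for Chchd2 (20 and -15.5). For the reverse direction it was 7.9 CPM for Sstr2 (-2.69 and 5.21) and 11.2 CPM for Ift122 (-4.24 and 6.96). These genes had been picked by the same interaction. The lists named here, apart from neuropeptide receptors, had been picked by their share of members with a low interaction p. Such a choice favors this separation.

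In 4 of 68 groups of 5 values (5.88%) a mouse stood apart from the others by Dixon's ratio, the gap to the nearest mouse over the whole range, and chance gives about 1 in 20. In susceptible D2 mice, 1 mouse had a score of tubulins, neurofilaments and microtubule proteins of 6.89 against 7.144 to 7.2 (ratio 0.821), and another an excitatory cortical score of 5.38 against 3.27 to 3.66 (ratio 0.819). A control D2 mouse had an excitatory cortical score of 3.37 against 3.64 to 3.73 (ratio 0.756). A susceptible B6 mouse had a BNST marker score of 5.39 against 5.18 to 5.21 (ratio 0.875).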

How the results depend on the processing

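The list medians relative to all genes kept their sign in the 36 settings tried for mitochondrial genome, respiratory chain, astrocyte, tubulin, excitatory cortical, heat shock, motor and receptor genes. They ranged from -2.85 to -1.41, -0.90 to -0.53, -0.66 to -0.20, -0.61 to -0.34, 0.076 to 0.73, -0.36 to -0.048, -0.25 to -0.12 and 0.34 to 0.87 in that order. Exceptions were long noncoding RNAs within library set 2 (0.0156), peptide precursors with at least 5 CPM in 6 libraries (-0.349), with a term for the prefix of the mouse ID (-0.0642), within library set 1 (-0.0348) and without members under 5 CPM (-0.408), and also BNST markers without the libraries of a single sequencing set (0.0693). The interaction of the mean score of BNST and limbic GABA neuron markers turned to 0.0318 with the median in place of the mean of members. Leaving out single mice moved peptide precursors between -0.0932 and 0.276 (below 0 without D2 control 2 or D2 susceptible 2, -0.0345) and BNST markers between -0.18 and 0.0179 (above 0 without B6 control 2, 0.0134, B6 susceptible 3, 0.00177, or D2 susceptible 4). Without TMM the interaction of Dync1li2 was 0.044. Subtracting the median of all genes takes out a shared shift, so scaling alone could hardly reverse the relative medians. The settings also share mice. Before subtraction, the B6 and D2 medians without TMM were -0.11 and -0.052 for tubulins and -0.17 and 0.17 for motors. They were -0.15 and 0.13 for heat shock and -0.014 and 0.062 for astrocyte genes. Mitochondrial genome, respiratory chain, excitatory cortical and receptor lists kept the signs of the main fit in both strains.

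The number of genes past the adjusted threshold, 0 in edgeR, was 223 with DESeq2, 80 with a term for that prefix, and 1416 without TMM. It was 109 without B6 control 4, 64 without D2 control 5 and 26 without B6 susceptible 3, and ranged from 0 to 109 when single mice were left out. Of the 223 genes of DESeq2, 185 were positive in B6 and negative in D2, and the other 38 the reverse. At an unadjusted p under 0.05 the count of 2004 became 3577 with no filter on low counts, 5331 without TMM, 865 within library set 1 and 1559 to 2842 without single mice, the highest without D2 control 2. The share positive in B6 and negative in D2, 63.9%, was 51% with voom and ComBat, 3.81% without TMM and 55.2 to 67.1% without single mice. In alternatives chosen after seeing the data, the unadjusted count was 541 without the 4 libraries of a single sequencing set. Without B6 susceptible 3 and D2 control 2, whose TMM factors were the lowest of their groups, it was 3245, with 157 past the adjusted threshold and a share of 49.6%. The causes were not tested.

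No paired analysis was possible because the labels give no numbers that match single mice of different groups. Fits with the library set or the ID prefix as a term gave 0 and 80 genes past the adjusted threshold. Genes of few reads, such as peptide precursors, carried the widest errors. Library scaling, mitochondrial RNA content and sequencing sets varied along the contrast. Striatal, cortical and thalamic markers differed in level between mice, and their source was not tested.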

Other observations

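Further gene groups, described here by list, lay on either side of the contrast, and the genes named in this section were picked after their values were seen. Receptors for monoamines and acetylcholine had the same sign as neuropeptide receptors. Of 31 tested, 19 (61.3%, against 28.8% of all genes) were negative in B6 and positive in D2, with a median interaction of 0.38, and 5 had a positive interaction at an unadjusted p under 0.05 (16.1%, against 4.09% of all genes). These were the nicotinic subunit Chrna7 (0.97 ± 0.31, edgeR adjusted p = 0.191) and the serotonin receptors Htr1d (1.07 ± 0.39), Htr2a (0.93 ± 0.44), Htr3a (1.54 ± 0.74) and Htr4 (1.08 ± 0.52), with adjusted p of 0.244 to 0.430. Circadian clock genes were divided, with a median interaction of 0.038. At an unadjusted p under 0.05, 2 of 22 were positive and 2 negative (18.2% together, against 11.4% of all genes). Per3 had 0.63 ± 0.20 and Tef 0.57 ± 0.19, and Rora -1.17 ± 0.47 and Rorb -0.85 ± 0.36, with adjusted p of 0.186 to 0.333.

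Several lists of protein and RNA handling had negative medians, to be read against the 7.35% of all genes with a negative interaction at an unadjusted p under 0.05. Of 36 translation factors, 9 had a negative interaction at an unadjusted p under 0.05 and 0 a positive one (median interaction -0.33), with Eef1a1 at -0.70 ± 0.24. Of 33 proteasome subunits 6 had one (median -0.23), and of 48 splicing factors and RNA-binding proteins 10 (median -0.27), led by Srsf5 at -0.81 ± 0.22 (edgeR adjusted p = 0.121). Of 38 ubiquitin ligases and autophagy genes 3 had one (7.89%), close to the share of all genes. Among 30 genes of the actin network, Tmsb4x, a small protein that holds actin monomers, had -1.61 ± 0.42 (adjusted p = 0.110). Microglial genes had 4 of 24 members with a negative interaction, including the purine receptor P2ry12 (-0.80 ± 0.23), and meningeal genes 5 of 24, including Igf2 (-1.32 ± 0.45). Of 28 striatal neuron markers and 24 postsynaptic scaffold genes, 0 had an unadjusted p under 0.05 in edgeR in either direction (all genes, 11.4%). Their median interactions were 0.029 and -0.12.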
